A study of Macaca fascicularis with 22 samples.

Results

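The albumin family and the major proteins of blood plasma were followed through 10 genes, each read by a single probe with 2 spots on the array, out of 20217 probes that were not controls. The genes were listed by name, with earlier results of these data known. Of these, 8 were taken by the human RefSeq accession that the array design gives the probe, namely NM_000477 (albumin, ALB), NM_001134 (alpha-fetoprotein, AFP), NM_000371 (transthyretin, TTR), NM_001063 (transferrin, TF), NM_005143 (haptoglobin, HP), NM_000567 (C-reactive protein, CRP), NM_000295 (alpha-1-antitrypsin, SERPINA1) and NM_001622 (fetuin-A, AHSG). The rest were taken by probe name, A_01_P002207 for the vitamin D-binding protein GC (NM_000583) and A_01_P014841 for ceruloplasmin, CP (NM_000096). All 10 probes passed the filter on dim signals, and each would have passed it through the arrays labelled Umbilical Cord alone, where all 10 were above background on all 8 arrays.

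RNA came from neonates of Macaca fascicularis, the cynomolgus macaque, that had received no treatment and were grouped by birth weight. The average birth weight group (ABW) lay in the 50th to 75th centile and the lower birth weight group (LBW) in the 5th to 25th centile. By their labels, 8 arrays carried Skeletal muscle and 8 carried Umbilical Cord, with 4 ABW and 4 LBW arrays each, and 6 carried Liver, with 3 ABW and 3 LBW arrays. All dams were mated to 1 male, so the neonates share a sire. The labels place all samples at birth, whereas the study's methods place the collection of liver and muscle some days after birth and that of cord at birth. Muscle and liver were taken from the same neonates, but no source used here ties arrays to single animals, so p-values measure the spread between arrays of a group.

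Plasma proteins are made in the hepatocyte, the parenchymal cell of the liver, which secretes them into the blood. ALB, AFP, GC and afamin (AFM) form the albumin family, which descends from a shared ancestral gene. AFP is the main albumin-like protein of the fetus and falls around birth as ALB takes over. Most other tissues make little or none of these proteins.

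Levels are given as log2 of the background-subtracted signal relative to the 75th percentile of the same array, so that 0 is the level of that percentile and 1 unit is a doubling. This 75th percentile ranged from 315 to 2390 signal units over the 22 arrays, and 14596 to 17889 probes per array were well above background. The arrays lay on 6 slides. Muscle ABW filled slide 1 and muscle LBW slide 2, and there a slide effect and a birth weight effect cannot be told apart. Cord ABW replicates 1 and 2 lay on slide 3 with Liver LBW replicates 2 and 3, Cord ABW replicates 3 and 4 on slide 4, and Cord LBW on slide 5. All Liver ABW arrays lay on slide 6 with Liver LBW replicate 1, so on liver-labelled arrays slide and birth weight are in part confounded. Slide 4 had a scan day and a Feature Extraction version of its own, and its negative controls had a net signal of 16.7 to 17.1 against 29.2 to 35.4 on the other slides. Of 9 probes for matrix and stromal genes, all 9 were higher on every array labelled Liver than on every other array. Of 15 probes for hepatocyte genes, 14 separated the 2 labels fully in the other direction, with all cord-labelled arrays above all liver-labelled ones. Among the 15, F13B passed the filter on dim signals through cord-labelled arrays only, so its separation follows in part from the filter. The shares of all probes with these patterns were not counted, and 66.9% of all probes were called between these 2 labels. Given these marker levels, the labels are used here as names of the arrays, and the tissue on the arrays labelled Liver and Umbilical Cord is not taken as established.

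On arrays labelled Umbilical Cord all 10 plasma protein genes had their highest levels, and on arrays labelled Liver 7 of the 10 were not well above background on any of the 6 arrays. For all 10 genes, every array labelled Umbilical Cord lay above all 14 other arrays, a pattern that 9.11% of the 17117 tested probes showed. AFP, GC, CP and CRP passed the filter on dim signals through cord-labelled arrays only. For them this pattern, and the calls between cord-labelled and other arrays, follow in part from the filter. In the fit of all 6 groups, 10 of 10 were higher on cord-labelled than on liver-labelled arrays at an adjusted p under 0.05, where 66.9% of all probes were called and 35.6% were called higher on the cord-labelled arrays. The median difference of the 10 genes was 11.53 on the log2 scale against 0.13 over all probes, and 10.82 with the genes at background on the liver-labelled arrays set to the bounds given below. Likewise 10 of 10 were lower on muscle than on cord-labelled arrays, with 64.9% of all probes called and 29.1% called lower, and the median difference was -9.64 against 0.11, or -9.64 with bounds. Between muscle and liver-labelled arrays 6 of 10 were called, all 6 higher on muscle, with 65.3% of all probes called and 37.1% called higher. The median there was 1.80 against 0.21, or 1.58 with the liver-labelled levels set in the same way. In these bulk samples, fewer cells of a type and less RNA per cell cannot be told apart.

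**Figure D1:**
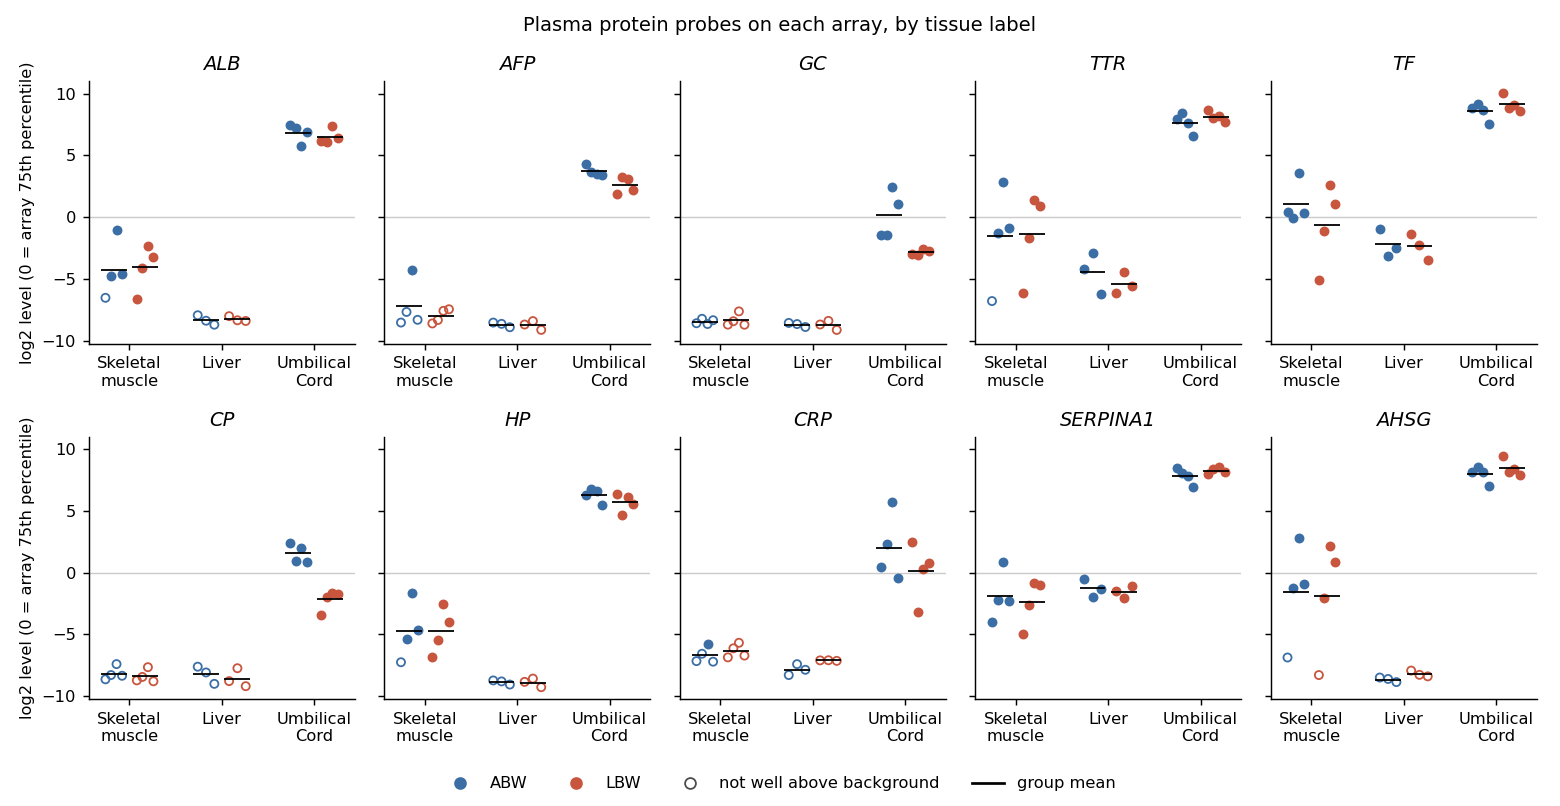
Log2 level of each of the 10 genes on every array, relative to the array's 75th percentile, by tissue label and birth weight group. Each point is 1 array, open points were not well above background and bars are group means. In each panel the 8 arrays labelled Umbilical Cord lie above the other 14, and 7 of the genes have only open points on the 6 arrays labelled Liver.

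Within the albumin family, ALB, the main carrier and osmotic protein of plasma, ranged on cord-labelled arrays from 5.79 to 7.47 with a median of 6.69. On liver-labelled arrays it was not well above background on any of 6. Taking the lowest measurable signal as the level there, ALB was at least 16427-fold higher on the cord-labelled arrays. This bound and those below hold for the main settings only. The limma test was of the difference with the liver-labelled signals as measured, 15.00 log2 units (adjusted p = 7.33e-14), and not of the bound. On muscle arrays ALB was above background on 7 of 8, from -6.66 to -1.07 with a median of -4.36. The lowest cord-labelled array lay above the highest array of both other labels. With the lowest measurable signal as the liver-labelled level, the muscle mean was 8.88-fold above it. That value is no lower bound, since not all 8 muscle arrays were above background. With signals as measured, muscle was 4.15 log2 units above liver-labelled arrays (adjusted p = 1.71e-05 by limma).

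AFP was measured on all 8 cord-labelled arrays, from 1.87 to 4.27 with a median of 3.36, and was at least 1434-fold higher there than on liver-labelled arrays. On muscle it was above background on ABW replicate 3 alone, at -4.30. The call of AFP as higher on muscle than on liver-labelled arrays (adjusted p = 0.046) rested on probes at background on 13 of 14 arrays and was lost under 20 of 35 alternative settings, so no fold is given. GC carries vitamin D metabolites and free actin. It ranged on cord-labelled arrays from -3.03 to 2.42 with a median of -2.03. It was not above background on any muscle or liver-labelled array, which puts the cord-labelled mean at least 69.7-fold above muscle and at least 62.7-fold above the liver-labelled mean. AFM, the remaining member of the family and a carrier of vitamin E, was at 5.76 ± 0.28 (SD, n = 4) on ABW and 5.37 ± 0.43 (SD, n = 4) on LBW arrays labelled Umbilical Cord and was at background on the 6 liver-labelled arrays.

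Among the carriers, TTR, which transports thyroxine and holds the retinol-binding protein in plasma, was measured under all 3 labels. It ranged from 6.60 to 8.67 on cord-labelled arrays, from -6.80 to 2.89 on muscle and from -6.26 to -2.88 on liver-labelled arrays. Muscle and liver-labelled arrays overlapped, and the cord-labelled arrays stood apart from both. The cord-labelled mean was higher than the liver-labelled one by 12.81 log2 units (SE 1.18, adjusted p = 7.16e-09). TF, the iron carrier of plasma, ranged from 7.56 to 10.07 on cord-labelled arrays, from -5.10 to 3.55 on muscle and from -3.49 to -0.95 on liver-labelled arrays, where it was above background on all 6. It was 11.15 units higher on cord-labelled than on liver-labelled arrays (SE 0.86, adjusted p = 4.9e-10). CP, a copper-containing ferroxidase, ranged from -3.39 to 2.40 on cord-labelled arrays with a median of -0.39. It was at background on all 14 others, so that it was at least 145-fold higher than on muscle and at least 129-fold higher than on liver-labelled arrays.

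HP binds free hemoglobin and CRP binds phosphocholine on microbes and damaged cells, and both rise in the acute phase of inflammation. HP ranged from 4.69 to 6.78 on cord-labelled arrays and from -7.25 to -1.68 on muscle, above background on 7 of 8 muscle arrays, and was at background on all 6 liver-labelled arrays. Cord-labelled arrays were at least 10153-fold above the liver-labelled mean. Muscle arrays were 6.01-fold above the same liver-labelled level, which is no lower bound, since not all 8 were above background. HP has a near-identical copy, HPR, and signal from the copy at the HP probe was not tested. CRP had the widest spread of the 10 on cord-labelled arrays, from -3.19 to 5.72 with a median of 0.63. It was above background on 1 of 8 muscle arrays and on no liver-labelled array, and was at least 308-fold higher on the cord-labelled than on the liver-labelled arrays.

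The protease inhibitor SERPINA1, which acts on neutrophil elastase, and AHSG, which binds calcium phosphate and is most abundant in the fetus, close the set. SERPINA1 ranged from 6.98 to 8.54 on cord-labelled arrays, from -4.94 to 0.84 on muscle and from -2.07 to -0.52 on liver-labelled arrays. It was above background on all 22 arrays. Cord-labelled arrays were 9.46 units above liver-labelled ones (SE 0.63, adjusted p = 4.5e-11), whereas muscle and liver-labelled arrays overlapped and differed by -0.72 (SE 0.63, 95% confidence interval -2.03 to 0.59, adjusted p = 0.325). AHSG ranged from 7.04 to 9.42 on cord-labelled arrays and from -8.29 to 2.81 on muscle, and was at background on all liver-labelled arrays. Its cord-labelled mean was at least 48113-fold above the liver-labelled one. The muscle mean was 49.2-fold above the same liver-labelled level. That value is no lower bound, since muscle arrays at background entered the mean.

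Birth weight was compared within each label. No gene of the set was called on muscle arrays, where 0% of probes were called at an adjusted p under 0.05, although 2524 probes had an unadjusted p under 0.05 in the limma fit. The share of all probes with such a p and a change of 1.5-fold or more was 12.2%, and no member was among them. On liver-labelled arrays 0% of probes were called, 1025 had an unadjusted p under 0.05, and 4.71% passed the unadjusted threshold. The 1 member past it, CRP, was not above background on any of the 6 arrays and has no usable difference. On cord-labelled arrays CP was lower in LBW at an adjusted p under 0.05, where 0.625% of all probes were called. At the unadjusted threshold 3 of the 10 genes passed, CP, GC and AFP, all lower in LBW, against 8.93% of all probes in both directions and 5.26% lower in LBW. These were also the 3 genes for which every LBW array lay below every ABW array, a pattern of 3.21% of all probes. The median difference of the 10 genes on cord-labelled arrays was -0.46 against -0.01 over all probes.

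CP on cord-labelled arrays was at 2.40, 0.97, 2.02 and 0.84 in ABW replicates 1 to 4 and at -3.39, -1.96, -1.62 and -1.70 in LBW replicates 1 to 4. The groups did not overlap, with the lowest LBW array being replicate 1. The means were 1.56 ± 0.77 (SD, n = 4) and -2.16 ± 0.83 (SD, n = 4), a difference of -3.72 (SE 0.49, 95% confidence interval -4.82 to -2.63), or 13.2-fold lower in LBW, with an adjusted p of 0.0091 by limma. The exact permutation test gave p = 0.0286, the smallest it can give with 4 against 4 arrays, and 0.286 after adjustment over 30 tests. Leaving out each array in turn left the difference between -3.96 and -3.32 and the adjusted p between 0.0161 and 0.0388. Under normexp background correction the difference was smaller, at -3.11 (adjusted p = 0.0108). The call was lost under spike-in scaling (-4.11, adjusted p = 0.0817) and under the methods' t-test (adjusted p = 0.361 after Benjamini-Hochberg adjustment). Against the ABW arrays of slide 3 alone the difference was -3.85 (adjusted p = 0.0903), and against those of slide 4 alone it was -3.60 (adjusted p = 0.0405).

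GC on cord-labelled arrays was at -1.43, -1.45, 2.42 and 1.06 in ABW replicates 1 to 4 and at -3.01, -3.03, -2.60 and -2.70 in LBW replicates 1 to 4. The 4 LBW arrays lay close together, and the ABW arrays fell in pairs by slide, with replicates 3 and 4 of slide 4 higher. The means were 0.15 ± 1.92 (SD, n = 4) and -2.84 ± 0.22 (SD, n = 4), a difference of -2.99 (SE 0.78) that did not pass (adjusted p = 0.217). The exact p was again 0.0286, the smallest possible, and 0.286 after adjustment. Against the ABW arrays of slide 3 alone the difference in GC was -1.40 (adjusted p = 0.32), and against those of slide 4 alone it was -4.58 (adjusted p = 0.00401). Without ABW replicate 3 it was -2.23 (adjusted p between 0.113 and 0.474 over the arrays left out in turn). Under normexp background correction it was -2.32 (adjusted p = 0.403). In the fit of all 6 groups, which shares 1 estimate of the spread with probes at background under the other labels, the adjusted p of GC was 0.00512.

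AFP on cord-labelled arrays was at 4.27, 3.69, 3.54 and 3.46 in ABW replicates 1 to 4 and at 1.87, 3.27, 3.09 and 2.19 in LBW replicates 1 to 4. The groups did not overlap, although LBW replicate 2 lay close below ABW replicate 4. The means of 3.74 ± 0.37 (SD, n = 4) and 2.60 ± 0.68 (SD, n = 4) differed by -1.14 (SE 0.38, adjusted p = 0.406), a 2.20-fold lower level in LBW that did not pass. The exact permutation p was 0.0286, the smallest possible, and 0.286 over 30 tests.

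**Figure D2:**
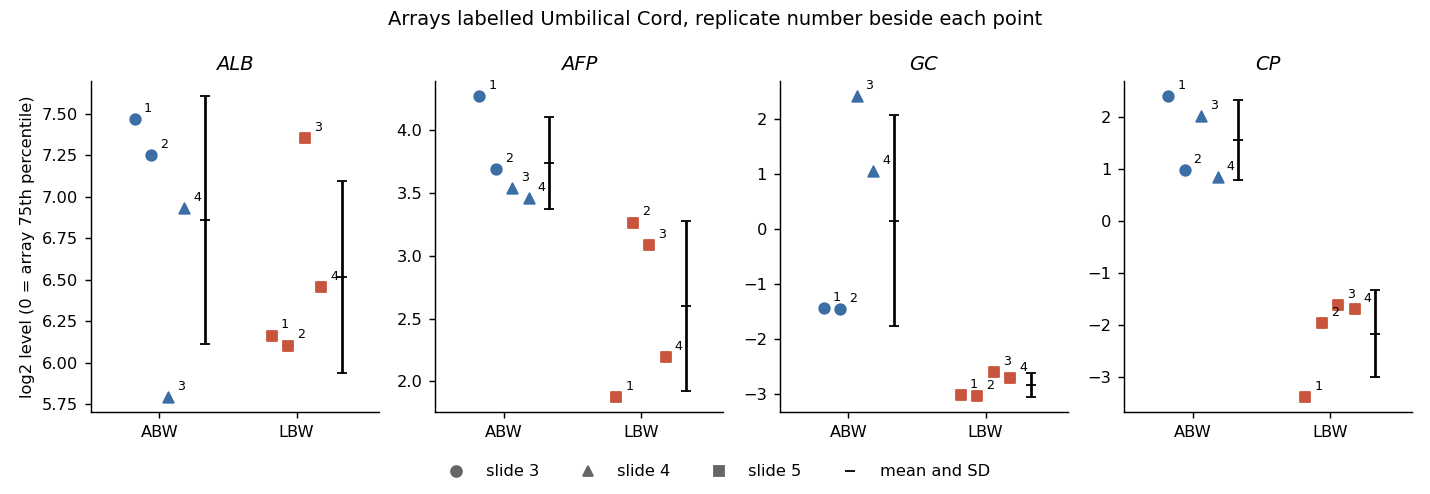
Log2 level of ALB, AFP, GC and CP on each array labelled Umbilical Cord, with the replicate number beside the point, marker shape for slide and bars for mean and SD (n = 4). For AFP, GC and CP all 4 LBW arrays lie below all 4 ABW arrays, whereas the groups overlap for ALB, and the y axes differ between panels.

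ALB itself was at 7.47, 7.25, 5.79 and 6.93 in ABW replicates 1 to 4 labelled Umbilical Cord and at 6.16, 6.10, 7.35 and 6.45 in LBW replicates 1 to 4. The groups overlapped, with ABW replicate 3 the lowest of the 8. The difference was -0.34 (SE 0.43, 95% confidence interval -1.30 to 0.61, adjusted p = 0.833). It was -0.70 without ABW replicate 3, -0.84 against the ABW arrays of slide 3 alone and 0.16 against those of slide 4 alone. AFM differed by -0.38 (SE 0.31, adjusted p = 0.725). The fetal to postnatal balance of AFP and ALB was taken as the log2 difference of the 2 probes on the same array, which a shift of the whole array leaves as it is but quantile scaling does not. In ABW it was -3.12 ± 0.60 (SD, n = 4), with single arrays at -3.19, -3.56, -2.25 and -3.47. In LBW it was -3.91 ± 0.72 (SD, n = 4), with single arrays at -4.29, -2.84, -4.27 and -4.26. The groups overlapped, since LBW replicate 2 at -2.84 lay above 3 of the ABW arrays, and the difference of -0.79 had an exact permutation p of 0.114, with a difference of -0.43 under quantile scaling. Without LBW replicate 2 the difference was -1.15 and the exact p was 0.0286, the smallest that 4 against 3 arrays can give. Both probes were above background on 1 of 8 muscle and 0 of 6 liver-labelled arrays, so the tests planned for those labels could not be made. The same within-array difference to ALB, added after the levels were seen and not tested, was -8.90 to -3.37 in ABW and -9.96 to -9.14 in LBW for GC, and -6.28 to -3.77 in ABW and -9.55 to -8.06 in LBW for CP.

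The remaining 6 genes overlapped between ABW and LBW on cord-labelled arrays. CRP was at 0.47, 2.37, 5.72 and -0.43 in ABW replicates 1 to 4 and at 2.50, -3.19, 0.31 and 0.79 in LBW replicates 1 to 4, with ABW replicate 3 the highest and LBW replicate 2 the lowest. Its difference of -1.93 (SE 1.41, adjusted p = 0.703) had a 95% confidence interval of -5.05 to 1.20 and was -0.70 without ABW replicate 3. HP differed by -0.59 (SE 0.43, adjusted p = 0.705). TTR, TF, SERPINA1 and AHSG had higher means in LBW by 0.50, 0.58, 0.45 and 0.49, with adjusted p-values of 0.728, 0.713, 0.72 and 0.748. ABW replicate 4 was the lowest array for all 4 and had the highest 75th percentile of the 22 arrays, 2390 signal units. Without it, the differences of TTR, TF, SERPINA1 and AHSG were 0.15, 0.23, 0.16 and 0.17. In the same order they were -0.04, 0.11, 0.004 and 0.09 against the ABW arrays of slide 3 alone. Against those of slide 4 alone they were 1.04, 1.04, 0.89 and 0.89. They also moved with the scaling, to 0.20, -0.03, 0.12 and -0.01 under quantile scaling and to 0.12, 0.20, 0.07 and 0.11 under spike-in scaling. The widest 95% confidence interval among these 4, that of TF, ran from -0.39 to 1.55.

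**Figure D3:**
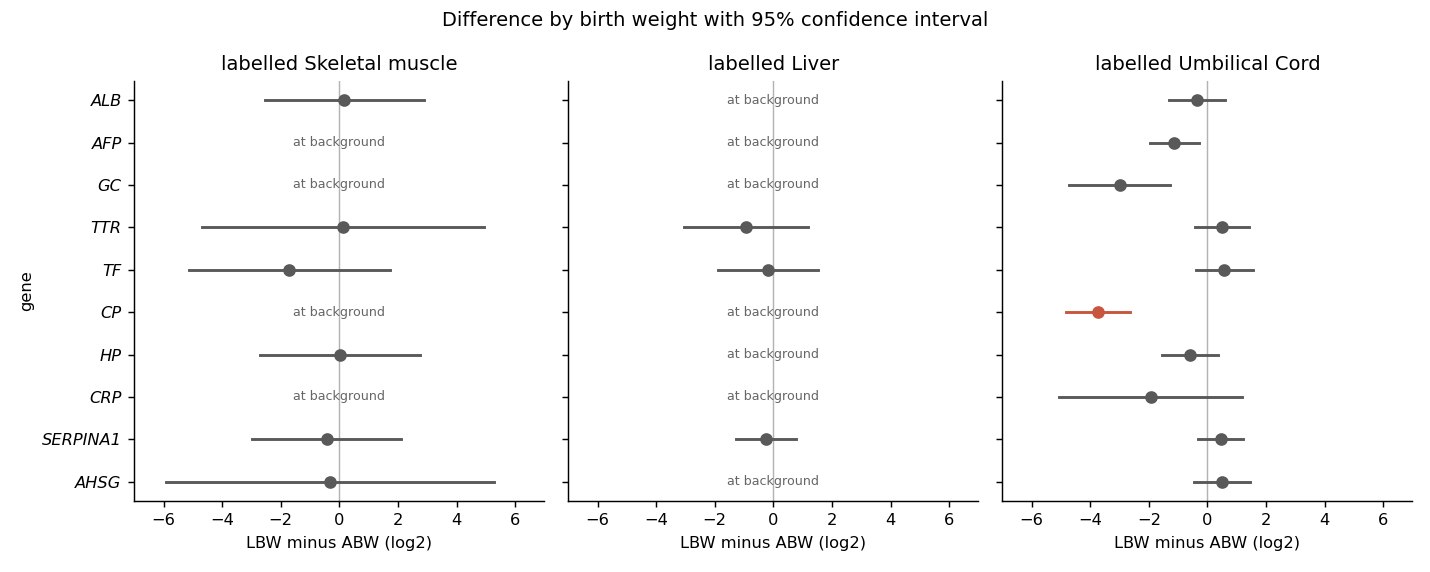
LBW minus ABW difference on the log2 scale for each gene and tissue label, with the 95% confidence interval of the limma fit. CP on cord-labelled arrays, coloured, was called at an adjusted p under 0.05, and genes above background on at most 1 array of the label are marked as at background.

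Over the 3 labels together, the mean LBW minus ABW difference was called for CP alone, at -1.43 (SE 0.28, adjusted p = 0.014), where 0.888% of all probes were called. The interaction of birth weight and label was called for CP (F = 17.9, adjusted p = 0.00967), where 1.01% of all probes were called, and had an adjusted p of 0.112 for GC. CP and GC were at background on all arrays of the other labels, where a difference could not be measured. Both values therefore restate the comparison on cord-labelled arrays, and they do not show whether the birth weight difference itself varied between labels.

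Striated muscle signal was also present on 2 arrays labelled Umbilical Cord. The mean level of 6 striated muscle genes was -0.43 on ABW replicate 2 and -2.63 on LBW replicate 1, against -5.51 to -4.52 on the other 6 arrays of that label. ACTA1, the skeletal muscle actin, was at 1.74 on ABW replicate 2, and on the other 6 arrays it lay between -7.52 and -5.32, below both. With both arrays left out, CP differed by -3.51 (adjusted p = 0.0224), GC by -3.46 (adjusted p = 0.219) and AFP by -0.91 (adjusted p = 0.505). The mean of 15 hepatocyte genes was 3.29 to 3.64 on ABW and 2.85 to 3.63 on LBW arrays of that label. Among these 15, F13B, the carrier subunit of coagulation factor XIII, was lower in LBW, with a difference of -3.81 (SE 0.43, adjusted p = 0.00707). It was at -0.29, -0.71, 1.02 and 0.68 in ABW replicates 1 to 4 and at -3.85, -4.12, -3.01 and -3.54 in LBW replicates 1 to 4, without overlap. UGT2B11, a glucuronosyltransferase, differed by -1.58 (adjusted p = 0.237) and hepatic lipase, LIPC, by -1.46 (adjusted p = 0.574). These 3 had the largest differences of the list, whereas the median over all 15 was 0.38, above 0, so that most of the list lay on the other side. No slide held cord-labelled arrays of both groups, so slide cannot be told apart from birth weight in the differences of CP, GC and AFP. The ABW arrays of slide 3 shared scan day and software version with the LBW arrays, and against these alone CP and GC differed by -3.85 and -1.40, neither of them called. The part of hepatocyte content was not tested.

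**Figure D4:**
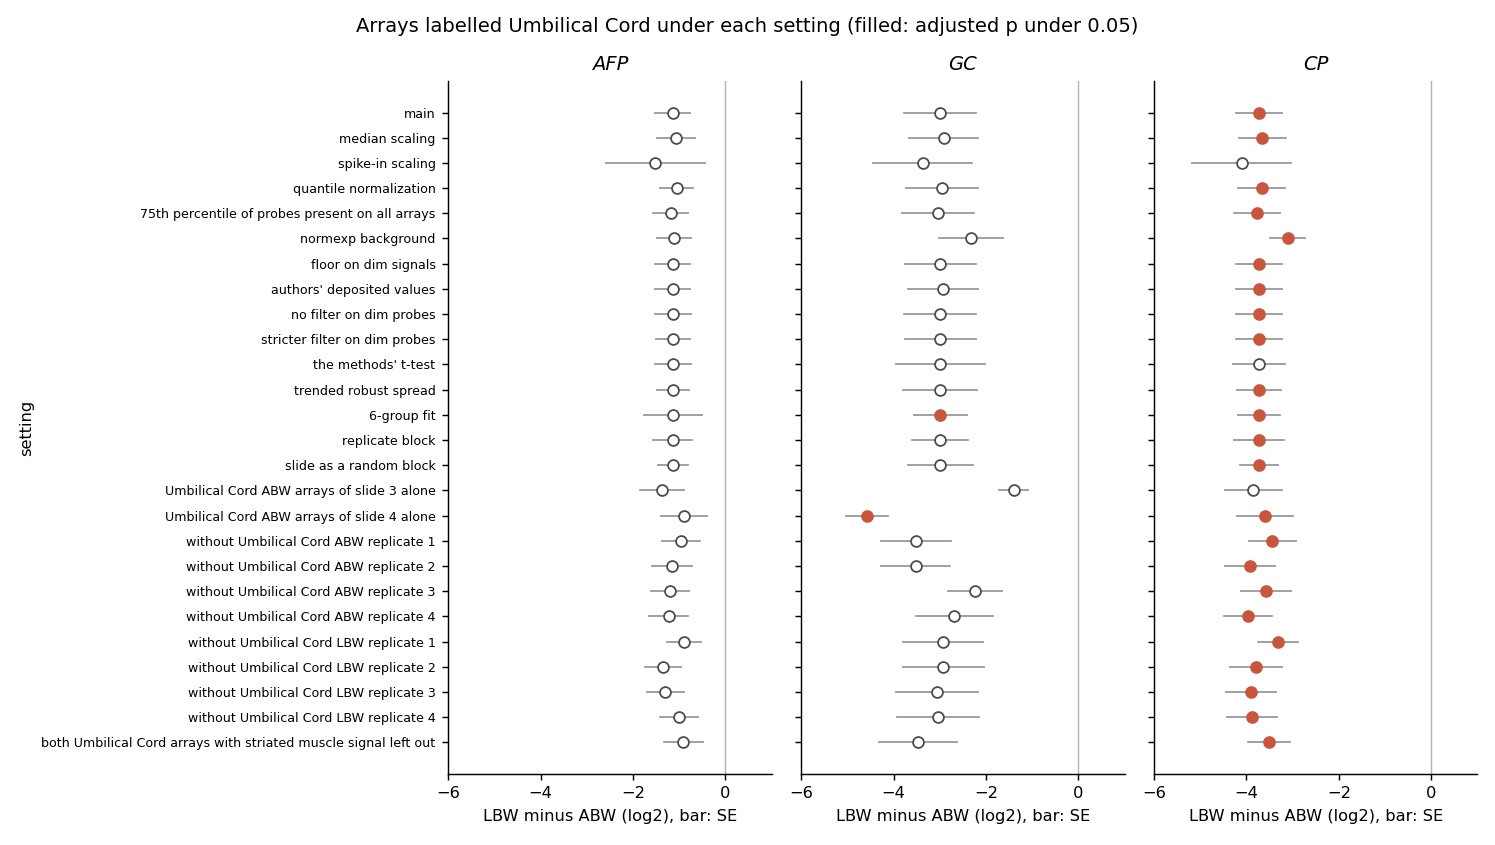
LBW minus ABW difference in AFP, GC and CP on arrays labelled Umbilical Cord under each processing setting and with each array left out, with bars for SE and filled points for an adjusted p under 0.05. All points lie below 0. CP is filled under all but 3 settings, GC under 2 and AFP under none.

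On muscle arrays 6 of the 10 genes were above background on at least 6 of 8 arrays, and they had nearly the same order of arrays. For all 6 (ALB, TTR, TF, HP, SERPINA1 and AHSG) the highest array was ABW replicate 3. LBW replicate 3 came next and LBW replicate 4 after it. The lowest was LBW replicate 1 for 4 genes and ABW replicate 1 for TTR and HP. ABW replicate 1 was at background for ALB, TTR, HP and AHSG, so the order at the bottom is not measured for these. AHSG, for example, was at -6.87, -1.20, 2.81 and -0.89 in ABW replicates 1 to 4 and at -8.29, -2.09, 2.13 and 0.86 in LBW replicates 1 to 4, with the first value of each group at background. ALB was at -6.53, -4.75, -1.07 and -4.64 in ABW and at -6.66, -4.08, -2.36 and -3.21 in LBW. TF followed the same order at the top, but ABW replicate 1 was at 0.46 and LBW replicate 1 at -5.10, although both were low for the other 5.

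The mean of the 15 hepatocyte genes had the same 3 muscle arrays at the top, at -3.31 on ABW replicate 3, -3.64 on LBW replicate 3 and -4.52 on LBW replicate 4, against -5.45 to -4.61 on the other 5. The striated muscle genes averaged 7.75 to 8.79 on all 8. With the 3 arrays left out, TTR differed between muscle and liver-labelled arrays by 1.46 (adjusted p = 0.209) and TF by 0.83 (adjusted p = 0.252), neither of them called, where with all arrays the differences were 3.46 (adjusted p = 0.0147) and 2.48 (adjusted p = 0.0166). The difference of SERPINA1 was then -1.89. ALB, HP and AHSG stayed called under all 35 alternatives for this comparison, with adjusted p-values up to 0.00492, 0.00542 and 0.00141. Since the arrays left out were also the 3 highest muscle arrays of TTR, TF and SERPINA1, the lower muscle means without them follow from the choice of arrays. These 3 arrays were chosen after the levels were seen, and the source of the hepatocyte signal on muscle arrays was not tested. The largest difference between LBW and ABW on muscle among these 6 genes was that of TF, at -1.71 (SE 1.52, 95% confidence interval -5.13 to 1.71, adjusted p = 0.65). It rested on LBW replicate 1, without which TF differed by -0.23 and AHSG and TTR by 1.84 and 1.72. The ABW mean of TF was 1.05 ± 1.68 (SD, n = 4) and the LBW mean was -0.66 ± 3.34 (SD, n = 4). Other intervals were also wide, from -5.90 to 5.28 for AHSG, from -4.68 to 4.95 for TTR and from -2.54 to 2.88 for ALB.

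**Figure D5:**
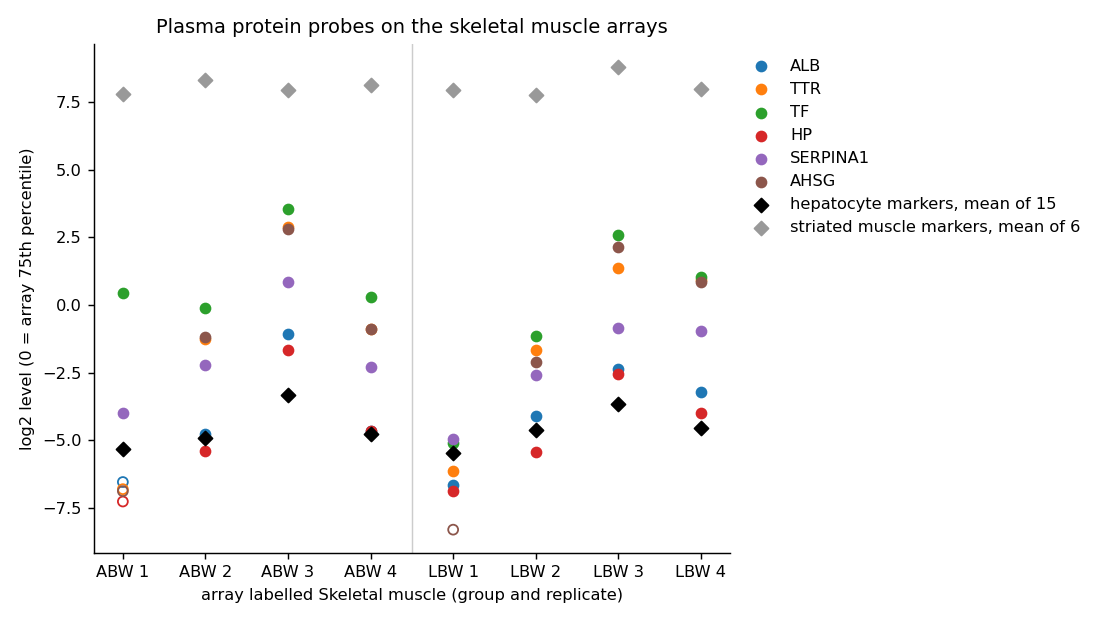
Log2 level of 6 plasma protein genes on each muscle array, with the mean of 15 hepatocyte and of 6 striated muscle genes on the same array, open points being not well above background. ABW replicate 3 and LBW replicate 3 are the highest for all 6 genes and for the hepatocyte mean, while the striated muscle mean stays between 7.75 and 8.79.

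The pattern of the 10 genes across labels was shared by the wider class of secreted liver proteins. Of 39 other plasma protein genes listed, 35 were on the array with 38 probes, all kept. On cord-labelled against liver-labelled arrays 38 of 38 probes were higher, with a median difference of 12.17 (11.70 with 13 probes at their bound), where 35.6% of all probes were called higher. On muscle against cord-labelled arrays 38 of 38 were lower, where 29.1% of all probes were called lower. Some of the 38, among them AFM, FETUB and HRG, passed the filter on dim signals through cord-labelled arrays only. For these, the calls against cord-labelled arrays follow in part from the filter. AMBP, the precursor of alpha-1-microglobulin, a probe of the fibrinogen chain FGG and serum amyloid P, APCS, were among the 13 probes at background on all 6 liver-labelled arrays, and these 3 were above it on all 8 cord-labelled ones, so that the size and order of their differences are not measured. Between muscle and liver-labelled arrays 27 were higher, 4 lower and 7 not called, where 65.3% of all probes were called and 37.1% were called higher. ITIH3, a heavy chain that binds hyaluronan, was lower on muscle, with a difference of -6.67. None of the 38 was called between LBW and ABW under any label in the limma fits, although 1 passed the unadjusted threshold on muscle, where 12.2% of all probes did, and 5 on liver-labelled arrays, where 4.71% did, with a median of 0.04 on cord-labelled arrays, where 0 of 38 passed the unadjusted threshold that 3 of the 10 members passed. That difference between lists was not tested.

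Receptors, partners and transcriptional regulators of these proteins were more mixed. Of 30 genes listed, 25 were on the array and 23 were kept with 24 probes. On cord-labelled against liver-labelled arrays 13 were higher, 4 lower and 7 not called, a share of calls close to the 66.9% of all probes. Among the iron genes, the hepatic transferrin receptor TFR2 was higher by 9.86 (SE 0.82, adjusted p = 1.37e-09). ASGR1, the hepatocyte receptor that clears desialylated glycoproteins, was higher by 9.32 (SE 0.38). IL6, the cytokine that drives the acute phase response, was called lower on cord-labelled arrays, where it was above background on only 2 of 8 against 6 of 6 liver-labelled arrays, so that the size of the difference is not measured. The clearance receptors CD163 for hemoglobin with haptoglobin and LRP2 for GC were not above background on any array. No regulator or receptor was called between LBW and ABW. On cord-labelled arrays the copper transporter ATP7A came first by difference (adjusted p = 0.556), but it was above background on 2 of 8, so that its size and rank are not measured.

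Macrophage genes CD14 and MARCO, which mark among others the resident macrophages of liver, were higher on cord-labelled than on liver-labelled arrays by 3.27 and 5.17. Of 5 kept macrophage probes, 3 were called higher, where 35.6% of all probes were, and 2 were not called. CD163, also on this list, was not above background on any array. Smooth muscle genes were lower on cord-labelled than on liver-labelled arrays in 4 of 4 probes, endothelial genes in 3 of 4 and erythroid genes in 4 of 5. With 66.9% of all probes called in either direction, counts over so few probes are given as a description. None of these lists had a member called between LBW and ABW on cord-labelled arrays.

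Over all 22 arrays the probes most like the mean of the 10 standardised genes were the fibrinogen chain FGB (Pearson r = 0.996), the bile acid transporter SLC10A1 (r = 0.996), the predicted transcript XR_012316 (r = 0.995), FGA (r = 0.995) and FGG (r = 0.994), a likeness set mainly by the contrast between labels. Over the 8 cord-labelled arrays alone, where n = 8 arrays share slides and scaling, the genes did not form 1 pattern. TF and AHSG ran together (r = 0.996), as did TTR and TF (r = 0.964), and HP ran with CRP (r = 0.84). TTR, TF and AHSG were each highest on LBW replicate 1 and lowest on ABW replicate 4. Of the 22 arrays, these had the lowest and the highest 75th percentile, 315 and 2390 signal units, to which all levels are relative. The part of this shared scaling in the correlations was not tested. Among the 3 genes whose groups did not overlap, r was 0.865 for AFP with CP, 0.75 for GC with CP and 0.48 for AFP with GC, over ABW and LBW arrays together, so that these values hold the group difference. GC ran against SERPINA1 (r = -0.68) and TTR (r = -0.65). The probes most like the 10-gene mean on these arrays were NM_002113 (r = 0.965), NM_005446 (r = 0.964), NM_152671 (r = 0.962), NM_022102 (r = 0.944) and NM_138795 (r = 0.943), which have no symbol in the tables used. In the gene list of the macaque assembly T2T-MFA8v1.1, AFM, AFP and ALB follow each other with 0 protein-coding genes between neighbours, and 5 lie between ALB and GC. AHSG, FETUB and HRG are likewise neighbours with 0 genes between them, whereas 79 lie between TF and CP.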

How the data were processed

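Intensities were deposited as Agilent Feature Extraction files, whose processed signal the authors' scanner software had background-subtracted without scaling between arrays. A deposited table of log2 values, which per the methods the authors had shifted by each array's 75th percentile and then baseline-transformed, is centred within each tissue and was used as an alternative. Its columns of 22 samples all matched a label. Spots flagged as outliers were left out, the 2 spots of a probe were averaged, and log2 values were reduced by the array's 75th percentile. A probe was kept if any of the 6 groups had it well above background on 75% or more of its arrays, which left 17117 of 20217. LBW and ABW were compared within each label, and labels in a fit of 6 groups, with limma 3.58.1 in R 4.3.3 and Benjamini-Hochberg adjustment over all probes kept. Single genes were also tested by two-sided exact permutation of arrays (scipy 1.17.1). Where a gene was below background on every array of a group, the fold is a bound, against the higher of its own signal and the lowest signal of a probe well above background, averaged over arrays. It is no bound where arrays of the brighter group were at background too. The number of arrays limits the precision. Confidence intervals are at 95%.

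Genes named were the 10 members, the 5 probes most like their mean over all arrays and over cord-labelled arrays, and the 3 of each other list with the largest difference in the comparison described. Members and lists were chosen with earlier results of these data known. Gene symbols were paired with accessions by hand, since the reference list of genes matched 0 of the array's accessions. ACTA1, AFM, CD163, LRP2 and the member pairs were named after their values were seen. The array design belongs to an older rhesus build, so no coordinates are given, and no sequences were at hand. Alternatives were median, spike-in and quantile scaling, normexp background correction (on median spot signals, with an offset of 50), a floor on dim signals, other filters, the methods' t-test, other spread estimates, blocks for replicate number and slide, and each array left out. On simulated data with 200 changed probes among 17117, the cord-labelled fit recovered 118, with 7 false calls.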

Additional observations from a re-analysis of the deposited data

Results flagged for a closer look

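TF on muscle ABW replicate 3 stood at 3.55, apart from the other 3 ABW arrays at -0.10 to 0.46. The gap to its nearest neighbour was 0.848 of the range of the group. Chance alone sets apart about 1 in 20 such groups, and 34 groups of 4 arrays were examined, of which this was the 1 that stood out. The same array was the highest of the muscle arrays for 5 other genes of the set and had the highest mean of the hepatocyte genes, and the part of this signal in the level of TF was not tested.

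The interaction of birth weight and label for CP had an F of 17.9 and an adjusted p of 0.00967. CP differed by -3.72 on cord-labelled arrays and was at background on all muscle and liver-labelled arrays, where no difference could be measured. The F therefore restates the difference on cord-labelled arrays and does not show that an effect of birth weight differed between labels.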

How the results depend on the processing

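No result changed its direction while called. The counts of 0 genes called between LBW and ABW on muscle and on liver-labelled arrays, and of 10, 6 and 10 called between labels, stayed within the limits set under all alternatives, the 6 for muscle against liver-labelled arrays ranging from 4 to 6. On cord-labelled arrays the 1 gene called, CP, became 0 under spike-in scaling (-4.11, adjusted p = 0.0817), under the methods' t-test (-3.72, adjusted p = 0.361) and against the ABW arrays of slide 3 alone, where the difference stayed about as large. It became 2, CP and GC, in the fit of 6 groups and against the ABW arrays of slide 4 alone, and stayed at 1 with each array left out. Under the methods' t-test 1008 probes passed their threshold on cord-labelled arrays and 0 after Benjamini-Hochberg adjustment. Over all probes the count of 107 called there was 15 under spike-in scaling, 22 under normexp, 65 under quantile scaling, 483 in the fit of 6 groups, 182 with slide as a random block, 0 against slide 3 and 140 against slide 4 alone. It was between 34 and 94 with an array left out. The median difference of all probes, -0.01 on cord-labelled and 0.07 on muscle arrays, was -0.39 and -0.47 under spike-in scaling and 0.29 and 0.14 under normexp. For the mean of the 3 labels, the 1 gene called became 0 under spike-in scaling, under a floor on dim signals and without the 3 muscle arrays rich in hepatocyte signal, and for the interaction it became 0 under spike-in scaling, 2 without both cord-labelled arrays with striated muscle signal, and 1 to 2 with an array left out. AFP minus ALB ranged from -1.15 to -0.50 with an array left out and was -0.43 under quantile scaling. The differences behind the folds given as bounds moved as well. Cord minus liver-labelled, in log2 units, fell as low as 10.38 for ALB, 7.04 for AFP, 3.03 for GC and 3.92 for CP. It fell to 9.91 for HP, 4.84 for CRP and 11.94 for AHSG. Muscle minus liver-labelled fell to 1.24 for ALB, 1.12 for HP and 3.19 for AHSG. SERPINA1 was called lower on muscle than on liver-labelled arrays under spike-in scaling, with a difference of -1.47, and without the 3 muscle arrays rich in hepatocyte signal, a choice that itself lowers the muscle mean. The causes were not tested. Of 2460 values of single genes under an alternative, 2320 kept their direction and side of the threshold, 29 lost and 7 gained a call, and 104 changed sign without a call. The 2 settings that leave arrays out by marker signal were chosen after seeing the data.

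Replicate numbers did not pair the arrays, since deviations of arrays with the same number correlated between -0.22 and 0.30 for ABW against LBW within a label, and between -0.29 and 0.04 for liver-labelled against muscle arrays. With the replicate block, 1 gene of the set was called on cord-labelled arrays (CP, adjusted p = 0.035) and 65 of all probes.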

Other observations

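Among the other plasma proteins, the largest differences between LBW and ABW lay outside the cord-labelled arrays, and none was called. On muscle arrays RBP4, the retinol carrier that TTR holds in plasma, differed by -1.78 (adjusted p = 0.617 by limma) and was above background on all 8 arrays. Its LBW arrays ranged from -5.79 to 1.14 (SD 3.20) and its ABW arrays from -0.73 to 2.72 (SD 1.62), so the groups overlapped. On liver-labelled arrays the protease inhibitor SERPINA5 differed by -1.98, the acute phase glycoprotein ORM1 by -1.73 and ITIH1, a hyaluronan-binding heavy chain, by 1.70, with adjusted p-values of 0.815, 0.902 and 0.815. SERPINA5 was above background on 2 and ORM1 on 3 of these 6 arrays.

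On muscle arrays 5 of the 9 matrix and stromal probes passed the unadjusted threshold that 12.2% of all probes passed in both directions, all 5 lower in LBW, with a median of -0.93 against 0.07 over all probes, and none was called. On these arrays each group filled a slide of its own, so the part of slide cannot be told apart.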
